A study of Mus musculus with 8 samples.

Results

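The 10 genes described here encode nuclear proteins and are grouped in this report as differentiation inhibitors, a role not equally established for each. They are the Id genes *Id1*, *Id2*, *Id3* and *Id4*, the Hes genes *Hes1* and *Hes5*, and the Sox genes *Sox5*, *Sox6*, *Sox9* and *Sox11*. They were found by symbol in the deposited table, and all 10 were among its 23427 rows. The cells were wild-type C57BL/6J mouse primary oligodendrocyte precursor cells (OPCs), immunopanned with an antibody against the receptor PDGFRα from the cortex of 3 pups (postnatal day 7). The protocols place Day 0 in growth medium with PDGF-AA and CNTF. Day 1, Day 2 and Day 3 follow the removal of PDGF-AA and the supply of the hormone T3 at 40 ng/mL. The sample labels instead name DMEM with fetal bovine serum as the medium. For each day 2 independent cultures were sequenced (8 libraries). No culture kept in growth medium to the later days was analysed here, so the time in culture and the change of medium cannot be told apart.

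Id proteins carry a helix-loop-helix domain without the basic stretch that binds DNA. They pair with E proteins (*Tcf3*, *Tcf4*, *Tcf12*) and keep these from joining factors such as *Olig2*. BMP signals induce Id genes in many cells. *Hes1* and *Hes5* are repressors that act in the Notch pathway and recruit corepressors of the Tle family. *Sox5* and *Sox6* (the SoxD group) lack an activation domain of their own, and in the oligodendrocyte (OL) lineage they oppose the myelin gene activator *Sox10*. *Sox9* (SoxE) takes part in the specification of glia, and *Sox11* (SoxC) marks immature neural cells.

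The libraries held about 960000 to 1530000 fragments each, as estimated from the whole steps between low FPKM values (mapped fragments per kilobase of transcript, corrected for library depth). OPC markers were lower on Day 3 than on Day 0 for 7 of 7 genes (26.3% of all genes), and OL markers were higher for 7 of 7 tested (12.0%). Among genes called in the fit of days without a replicate block, the largest falls were those of *Cspg4* among OPC markers (log2 change -4.96), *Ccnb1* among proliferation genes (-5.35) and *Nefl* among neuron markers (-1.11), and the largest rises those of *Mobp* among OL markers (8.39) and *Tubb3* among neuron markers (2.15). Defining markers of other cells were sparse, with 6 of 8 microglia, 3 of 6 endothelial and 3 of 8 mural and fibroblast markers at 0 in every library. Of 11 astrocyte markers tested, *Atp1b2* was called lower on Day 3 (-0.72) and 0 higher, against 26.3% and 12.0% of all genes. With the replicate number as a block, 3 were higher (*Gfap*, *Aqp4* and *Slc4a4*, log2 changes of 1.76, 1.62 and 1.18), against 13.2% of all genes. The median of the astrocyte list was 0.34, and that of all genes -0.31. The neuron marker *Snap25* was called lower with the block (-1.79). Astrocyte markers also set the replicates apart. Their summed FPKM was 400.1 to 650.9 in the replicate 1 libraries and 848.7 to 1565 in the replicate 2 libraries, and 8 of 12 were higher in replicate 2 on all 4 days. Each member is therefore shown by replicate. In such bulk samples, fewer cells of a type and less RNA per cell cannot be told apart.

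The limma fits used log2(FPKM + 1) of the 12208 genes that reached 1 FPKM in 2 or more libraries, and a gene was called at an adjusted p under 0.05. All 10 members passed this filter, *Hes1* with no more than 3 fragments in any library. Another fit had the replicate number as a block, because libraries with the same number deviated together. Both fits give the same log2 changes but not the same errors, and the calls of both are given. Log2 changes are on the log2(FPKM + 1) scale, which understates the change of low genes.

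From Day 0 to Day 3, all members that passed were lower. In the fit without the block, 4 members were called lower (*Hes5*, *Sox11*, *Sox6* and *Sox9*) and 0 higher, and the remaining 6 did not pass. The background was 26.3% of all genes tested called lower and 12.0% called higher. With the replicate block, 7 of 10 members were lower (*Id2*, *Id3* and *Sox5* were added) against a background of 29.1%, and 0 were higher against 13.2%. The median log2 change was -1.13 over the 10 members and -0.31 over all genes tested. The split over all genes, 1460 higher and 3207 lower, became 2135 higher and 2047 lower with median ratio scaling, under which *Hes5*, *Sox11*, *Sox6* and *Sox9* were again the members called lower.

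The members also differed in level, compared here per length as FPKM. On Day 0 the day means ran from *Id3* (94.2 FPKM) over *Sox6* (86.5), *Id2* (65.2), *Sox9* (48.3), *Sox11* (44.0), *Hes5* (26.4) and *Id4* (13.5) down to *Id1* (4.92), *Sox5* (3.54) and *Hes1* (1.01). In this order the replicates of *Id3* and *Sox6*, of *Id2*, *Sox9* and *Sox11*, and of *Id1* and *Sox5* overlapped, and the other neighbours did not. On Day 3 *Id3* (62.0 FPKM) and *Id2* (37.5) led with overlapping replicates, and below them *Id4* (16.6) overlapped with *Sox6* (13.2).

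With the block, *Id1* and *Id3* rose from Day 0 to Day 1. *Id3* was the most abundant Id gene in every library (chromosome 4, 136143497 to 136145755, GRCm38). Its FPKM from Day 0 to Day 3 was 118.3, 221.6, 90.46 and 76.96 in replicate 1, and 70.12, 159.2, 63.83 and 47.1 in replicate 2. Both replicates were highest on Day 1 and lowest on Day 3, and the Day 1 libraries lay above those of every other day. Between Day 0 and Day 1 its log2 change was 1.04 (SE 0.32, adjusted p = 0.0748), and with the block it passed (SE 0.13, adjusted p = 0.00147). The return from Day 1 to Day 2 was -1.29 (adjusted p = 0.0671, and 0.00228 with the block). Both steps of *Id3* passed in all 12 fits with the block, which include other scalings and single libraries left out. Day 3 stood at a log2 change of -0.59 against Day 0, which passed only with the block (adjusted p = 0.0084, and 0.183 without it). That last call was lost under median ratio scaling with the block (-0.28, adjusted p = 0.149), without replicate 1 of Day 0 (adjusted p = 0.0781) and without replicate 2 of Day 3 (adjusted p = 0.0524).

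*Id2* (chromosome 12, 25093799 to 25097140) is known as an Id protein whose export from the nucleus accompanies OPC differentiation. In replicate 1 it measured 72.77, 133.3, 63.9 and 51.17 FPKM from Day 0 to Day 3, and in replicate 2 57.66, 61.47, 35.43 and 23.8 FPKM. The Day 1 peak was thus large in replicate 1 and slight in replicate 2, and the change from Day 0 to Day 1 (log2 0.48) did not pass in either fit (adjusted p = 0.563, and 0.149 with the block). Between Day 1 and Day 2 *Id2* changed by -0.91 (adjusted p = 0.277, and 0.0336 with the block). That call was lost with the block under median ratio scaling (adjusted p = 0.0694) and without any of the 4 libraries of those days (adjusted p = 0.0795 to 0.219). Its Day 3 level differed from Day 0 by a log2 change of -0.87 (adjusted p = 0.163, and 0.00843 with the block). The Day 3 call with the block was lost without replicate 2 of Day 0 (adjusted p = 0.0883) and without replicate 2 of Day 3 (adjusted p = 0.06).

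*Id1* (chromosome 2, 152736251 to 152737410) separated the replicates most. Over the 4 days replicate 1 was listed at 0, 4.475, 0.9012 and 0 FPKM, which rest on 0, 5, 1 and 0 fragments. Replicate 2 was at 9.84, 38.63, 9.893 and 4.583 FPKM, from 11, 45, 12 and 4 fragments. Every replicate 2 library lay above the replicate 1 library of its day, and both replicates were highest on Day 1. A floor of 3 fragments corresponded to 2.15 FPKM in replicate 1 of Day 0 and 3.02 FPKM in replicate 1 of Day 3, so *Id1* was below what these libraries could measure. The Day 1 count of replicate 2 had an exact Poisson 95% interval of 32.8 to 60.2 fragments and the Day 0 count one of 5.49 to 19.7, which covers counting error only. Day 1 differed from Day 0 by a log2 change of 2.16 (SE 1.4, adjusted p = 0.386), and with the block it passed (SE 0.33, adjusted p = 0.0031) and did so in all 12 fits with the block. This fitted change depends on the pseudocount, because replicate 1 was at 0 on Day 0. Day 2 was lower than Day 1 with the block (-1.69, adjusted p = 0.0239), but not without it (adjusted p = 0.521) and not with the block when any of the 4 libraries of those days was left out. Day 3 and Day 0 differed by -0.48 (adjusted p = 0.812, and 0.269 with the block).

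*Id4* (chromosome 13, 48261228 to 48266026) had the narrowest relative range. It stayed between 9.421 and 18.86 FPKM in the 8 libraries, with 15.71, 14.73, 9.891 and 14.36 FPKM by day in replicate 1 and 11.29, 9.421, 14.48 and 18.86 in replicate 2. The replicates crossed, since replicate 1 was higher on Day 0 and Day 1 and replicate 2 on Day 2 and Day 3. The log2 change from Day 0 to Day 3 was 0.29 with a 95% interval of -0.39 to 0.96 (adjusted p = 0.474), and the interval with the block was -0.4 to 0.97. Annotated noncoding transcripts on the other strand overlap 253 exonic bases of *Id4*, and whether counting used strand is not given in the sources used here.

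**Figure D1:**
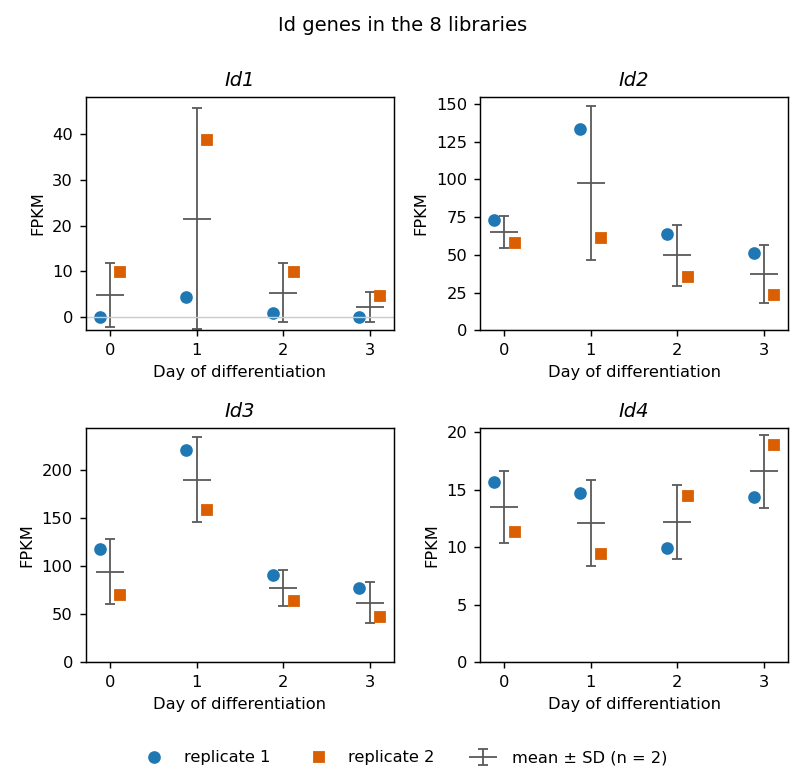
FPKM (vertical axes, linear, each panel with its own range) of *Id1*, *Id2*, *Id3* and *Id4* against the day of differentiation. Circles are replicate 1, squares replicate 2, and bars the mean ± SD (n = 2). *Id3* peaks on Day 1 in both replicates (221.6 and 159.2 FPKM), *Id1* is carried by replicate 2 (38.63 against 4.475 FPKM on Day 1), and *Id4* stays between 9.421 and 18.86 FPKM.

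Summed over the 4 genes, Id expression by day was 206.8, 374.1, 165.1 and 142.5 FPKM in replicate 1 and 148.9, 268.7, 123.6 and 94.34 FPKM in replicate 2. *Id2* and *Id3* made up 75.1% to 94.9% of this sum. Of their E protein partners, *Tcf4* shared the Day 1 peak. It went from 88.1 ± 2.02 FPKM (Day 0) to 168.7 ± 18.5 FPKM (Day 1, SD, n = 2), a log2 change of 0.93 (SE 0.18, adjusted p = 0.0118), and fell to 50.35 ± 3.04 FPKM on Day 3. *Tcf12* went from 129.3 ± 6.01 to 53.11 ± 15.7 FPKM and *Tcf3* from 45.53 ± 4.9 to 16.83 ± 9.08 FPKM between Day 0 and Day 3 (log2 changes of -1.3 and -1.48, adjusted p = 0.00223 and 0.00701). The ratio of the Id sum to the sum of the 3 E proteins was 0.76, 1.15, 0.943 and 1.02 by day in replicate 1 and 0.587, 0.95, 0.931 and 0.938 in replicate 2. It was thus lowest in the Day 0 libraries, and no test was made of this ratio. Of the 10 bHLH partners and corepressors on the list, 7 were lower on Day 3 (26.3% of all genes) and 1 was higher (12.0%). With the block 8 were lower (29.1% of all genes) and 1 was higher (13.2%). The median log2 change of the list was -1.04, and that of all genes -0.31. The rise was that of *Tle2* (6.03 ± 0.622 to 12.3 ± 2.4 FPKM, log2 change 0.91, adjusted p = 0.0181).

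In the BMP pathway, for which Id genes are classic targets, the ligand *Bmp4* was also highest on Day 1. *Bmp4* was at 5.231, 61.33, 30.88 and 9.655 FPKM by day in replicate 1 and at 4.496, 83.14, 9.793 and 2.617 FPKM in replicate 2. The Day 1 level was a log2 change of 3.63 above Day 0 (SE 0.58, adjusted p = 0.00507), and the Day 3 level one of 0.09 (adjusted p = 0.921). The secreted antagonist *Nog* passed in the same step at a low level (0.509 ± 0.72 to 3.76 ± 1.29 FPKM, adjusted p = 0.0448). Between the same days *Bmp7* fell from 94.3 ± 2.06 to 4.69 ± 1.57 FPKM (log2 change -4.09, adjusted p = 0.000804). The inhibitory *Smad7* was the largest rise of the list by Day 3 (1.98 ± 0.311 to 28.1 ± 5.21 FPKM, log2 change 3.28, adjusted p = 0.000132). The receptor *Bmpr1b* was between 0 and 2.784 FPKM in all libraries and did not pass (adjusted p = 0.513 on Day 1). Of 18 pathway genes tested among 25 listed, 2 were higher and 1 lower on Day 1 (5.04% and 7.56% of all genes), and 2 were higher and 4 lower on Day 3 (12.0% and 26.3%). With the block *Smad7* was added to those higher on Day 1, and *Smad1* and *Bmpr1a* to those lower on Day 3. The median log2 changes of the list were 0.13 and -0.22, against -0.07 and -0.31 over all genes. Whether *Bmp4* bears on the Id genes in these cultures was not tested.

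*Hes5* fell furthest of the members by Day 3. The gene (chromosome 4, 154960923 to 154962371) measured 34.82, 10.89, 1.935 and 2.881 FPKM by day in replicate 1 (68, 17, 3 and 4 fragments). In replicate 2 it measured 17.93, 4.3, 2.95 and 0.8199 FPKM (28, 7, 5 and 1 fragments). Both Day 0 libraries lay above all later ones, and the later days rest on few fragments. Its Day 3 level was at a log2 change of -3.29 against Day 0 (SE 0.52, adjusted p = 0.00182, and 0.000406 with the block), and it passed in all 16 other fits without the block and all 12 with it. The step to Day 1 was -1.71 (adjusted p = 0.0688, and 0.0232 with the block). Without replicate 1 or replicate 2 of Day 0, or without replicate 2 of Day 1, that step did not pass with the block either. *Hes1* (chromosome 16, 30064384 to 30067796) was listed between 0 and 1.895 FPKM, from 0 to 3 fragments a library, so no change could be measured at this depth. An annotated noncoding transcript on the other strand overlaps 433 of the 1363 exonic bases of *Hes5*.

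In the Notch pathway, 6 of 29 genes tested among 34 listed were lower and 0 higher on Day 1, against 7.56% and 5.04% of all genes, and 11 were lower and 2 higher on Day 3, against 26.3% and 12.0%. With the block the calls were the same but for *Cntn1*, added to those lower on Day 1. The median log2 changes of the list were -0.22 and -0.44, and those of all genes -0.07 and -0.31. The receptor *Notch1* was at 57.2 ± 10.8 FPKM (Day 0), 57.5 ± 13.4 FPKM (Day 1) and 18.8 ± 2.57 FPKM (Day 3, log2 change -1.55, SE 0.29, adjusted p = 0.00428). From Day 0 to Day 1 *Notch1* had a log2 change of 0.0 (adjusted p = 1.0). The ligand *Dll1* fell in that step from 35.3 ± 1.82 to 9.96 ± 3.75 FPKM (log2 change -1.77, adjusted p = 0.0219), and the Notch target *Nrarp* from 10.7 ± 0.318 to 2.51 ± 1.83 FPKM (log2 change -1.84, adjusted p = 0.0267). Other listed targets, *Hey1* (20.99 ± 0.417 to 13.59 ± 1.17 FPKM) and *Hey2* (7.18 ± 3.32 to 7.98 ± 6.48 FPKM), were not called in that step in either fit. *Hey1* was among the genes called lower on Day 3. *Dll3*, a divergent ligand, had the largest fall by Day 3 (38.1 ± 15.5 to 1.27 ± 1.8 FPKM, adjusted p = 0.00338), and the γ-secretase subunit *Aph1a* the largest rise (43.4 ± 5.89 to 82.7 ± 1.36 FPKM, adjusted p = 0.00339). The ligand *Jag1* was at 9.731, 20.33, 6.277 and 3.672 FPKM by day in replicate 1 and at 3.412, 2.989, 2.598 and 2.85 FPKM in replicate 2. It did not pass on Day 1 or Day 3 (adjusted p = 0.785 and 0.497). Whether these genes bear on *Hes5* in these cultures was not tested.

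The start regions of 7 members were matched in the RefSeq promoter table (GRCm38.p6), with 12 windows in all because *Sox6* has several starts. *Id1*, *Hes1* and *Sox9* had no entry. The 250 bases before the start are shown for *Hes5* and *Sox11*, the members with the largest falls by Day 3, and for *Id4*, which did not pass the test. They lie at chr4:154960673-154960922 (plus strand), chr12:27342719-27342968 (minus strand) and chr13:48260866-48261115 (plus strand) and are printed 5′ to 3′ on the gene's strand. Capitals mark TGGGAA or its complement TTCCCA, the core letters bound by the Notch effector *Rbpj*, and CACNAG or its complement CTNGTG, the N box of Hes repressors.
Hes5: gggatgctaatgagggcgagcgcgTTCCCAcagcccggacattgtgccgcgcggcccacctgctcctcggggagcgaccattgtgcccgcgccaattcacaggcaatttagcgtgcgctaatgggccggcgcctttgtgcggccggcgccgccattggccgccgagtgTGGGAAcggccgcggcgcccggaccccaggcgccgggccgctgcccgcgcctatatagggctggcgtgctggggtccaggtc
Sox11: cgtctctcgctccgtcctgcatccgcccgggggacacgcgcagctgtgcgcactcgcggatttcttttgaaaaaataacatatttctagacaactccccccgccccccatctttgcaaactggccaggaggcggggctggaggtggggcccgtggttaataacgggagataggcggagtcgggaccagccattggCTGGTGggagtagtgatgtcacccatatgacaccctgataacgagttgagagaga
Id4: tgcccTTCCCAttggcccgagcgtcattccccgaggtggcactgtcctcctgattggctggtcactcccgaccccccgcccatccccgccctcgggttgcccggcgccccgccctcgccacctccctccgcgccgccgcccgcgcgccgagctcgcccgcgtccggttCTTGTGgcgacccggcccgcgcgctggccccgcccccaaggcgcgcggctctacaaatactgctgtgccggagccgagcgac
*Hes5* held the *Rbpj* letters 2 times, 226 and 82 bases before its start, and no N box. *Sox11* held 1 N box, and *Id4* held both kinds 1 time each. Over all 32851 promoter windows of this length, 21.6% held the *Rbpj* letters and 36.7% the N box letters on either strand. The E box letters CANNTG, the general site of bHLH factors, occurred 1 time before *Hes5*, 2 times before *Sox11* and not before *Id4*, against 66.2% of all windows. The Smad letters GGCGCC, which share no bases with the letters above in these windows, occurred 4 times before *Hes5*, 1 time before *Id2* and *Id4*, and in 9.59% of all windows. These are matches of letters and not measured sites.

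The Sox members fell at different times. *Sox9* (chromosome 11, 112782224 to 112787760) measured 27.52, 1.77, 2.574 and 4.422 FPKM by day in replicate 1 (175, 9, 13 and 20 fragments). Replicate 2 gave 68.99, 5.092, 7.427 and 9.818 FPKM (351, 27, 41 and 39 fragments). It was lowest on Day 1 in both replicates, and replicate 2 was 2.22 to 2.89 times replicate 1 on every day. Day 1 against Day 0 gave a log2 change of -3.44 (SE 0.61, adjusted p = 0.00828, and 0.000256 with the block). Day 3 against Day 0 gave -2.54 (SE 0.61, adjusted p = 0.0123, and 9.26e-05 with the block). Without the block, the Day 1 call was lost without replicate 2 of Day 0 (adjusted p = 0.071), and the Day 3 call without replicate 2 of Day 0 or replicate 1 of Day 3. With the block both held in all 12 fits.

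*Sox11* (chromosome 12, 27334264 to 27342574) fell in the same step and further in the last. By day it measured 49.91, 12.44, 15.74 and 6.943 FPKM in replicate 1, and 37.99, 12.21, 10.84 and 4.57 FPKM in replicate 2. No library of a later day reached the Day 0 level, and both Day 3 libraries lay below all others. The log2 changes were -1.74 on Day 1 (SE 0.26, adjusted p = 0.00376) and -2.74 on Day 3 (SE 0.26, adjusted p = 0.000187), and both passed in all 16 other fits without the block and all 12 with it. The step from Day 2 to Day 3 was -1.08 (adjusted p = 0.116, and 0.0473 with the block), a call made in 4 of 12 fits with the block.

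*Sox6* (chromosome 7, 115470872 to 116038796) kept its level for a day longer. By day it measured 79.38, 109.9, 51.3 and 17.28 FPKM in replicate 1, and 93.54, 92.95, 23.37 and 9.176 FPKM in replicate 2. The Day 0 and Day 1 replicates overlapped, and the Day 2 and Day 3 libraries lay below them in that order. The log2 change was 0.23 on Day 1 (95% interval -0.62 to 1.08, adjusted p = 0.76) and -2.68 on Day 3 (SE 0.37, adjusted p = 0.001, and 0.000227 with the block). The Day 3 call passed in all 28 other fits. The change into Day 2 was -1.52 (adjusted p = 0.0648, and 0.0221 with the block), and that into Day 3 was -1.39 (adjusted p = 0.145, and 0.0601 with the block). With the block, the call from Day 1 to Day 2 was lost without either replicate of Day 1 or replicate 2 of Day 2.

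*Sox5* (chromosome 6, 143828425 to 144781977), the partner of *Sox6*, was far lower. Replicate 1 gave 1.75, 1.021, 0.4639 and 0.259 FPKM by day, and replicate 2 gave 5.336, 7.624, 1.332 and 0.9966 FPKM. Replicate 2 was the higher on every day, and the Day 0 replicates overlapped with those of Day 1. Day 3 differed from Day 0 by a log2 change of -1.4 (adjusted p = 0.15), and with the block it passed (adjusted p = 0.0272). That call was lost under quantile normalization with the block (adjusted p = 0.0748), without either replicate of Day 0 (adjusted p = 0.11 and 0.146) and without replicate 2 of Day 3 (adjusted p = 0.162). The table gives 1 value for each of these genes with 14 annotated transcripts of *Sox5* and 16 of *Sox6*, and fragments could not be recovered for them. Annotated noncoding transcripts on the other strand share 1330 exonic bases in sum with *Sox5*.

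**Figure D2:**
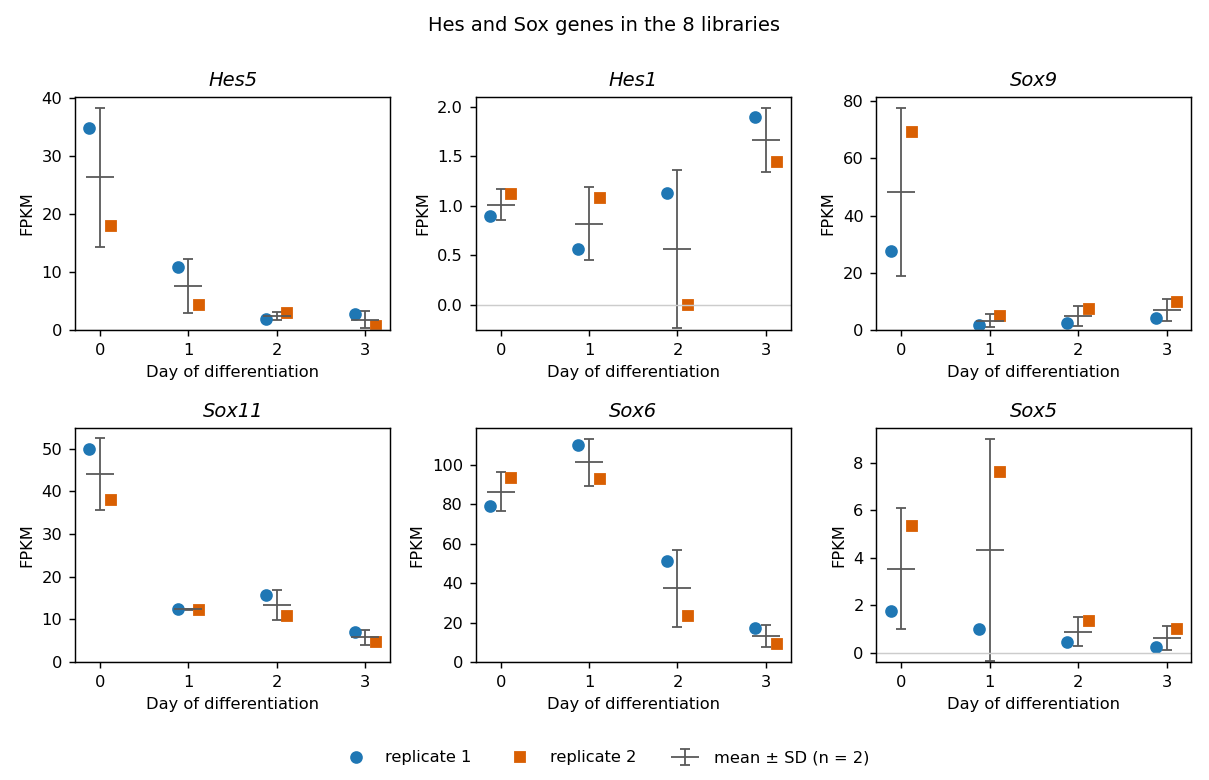
FPKM (vertical axes, linear, each panel with its own range) of the Hes and Sox members against the day of differentiation, with symbols as for the Id genes. *Hes5*, *Sox9* and *Sox11* are highest on Day 0, *Sox6* keeps its level until Day 1 (109.9 and 92.95 FPKM), and all *Hes1* values rest on 3 fragments or fewer.

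Relatives outside the members did not follow a single course. *Sox10*, the myelin gene activator, had means of 377.1 ± 3.54 FPKM (Day 0), 571.1 ± 11.7 FPKM (Day 1) and 435.9 ± 97.4 FPKM (Day 3). Its change to Day 1 passed (log2 0.6, SE 0.16, adjusted p = 0.0494) and that to Day 3 did not (0.19, adjusted p = 0.388). *Sox8*, of the same group as *Sox9* and *Sox10*, had log2 changes of 0.61 on Day 1 (adjusted p = 0.0854) and -0.58 on Day 3 (adjusted p = 0.0484). *Sox4*, of the same group as *Sox11*, had log2 changes of 0.74 on Day 1 (adjusted p = 0.0969, and 0.0399 with the block) and 0.17 on Day 3 (adjusted p = 0.627). Of 9 other Sox genes tested among 12 listed, 5 were lower on Day 3 (26.3% of all genes) and 0 higher (12.0%). The median log2 change of the list was -0.58, and that of all genes -0.31. The largest fall was that of *Sox3*, a factor of neural progenitors (25.7 ± 2.79 to 2.69 ± 1.92 FPKM, log2 change -2.95, adjusted p = 0.000683). The step in which *Sox9* and *Sox11* fell was also that in which 8 of 8 proliferation genes were called lower, against 7.56% of all genes. The median log2 change was -0.07 over all genes and -4.51 over these proliferation genes. Their part in the result was not tested.

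Read by step, Day 1 against Day 0 had 2 members lower (*Sox9* and *Sox11*) against a background of 7.56% of genes and 0 higher against 5.04%. The split over all genes, 615 higher and 923 lower, became 836 and 833 with quantile normalization. With the block there were 3 lower (*Hes5* added) against 9.01% and 2 higher (*Id1* and *Id3*) against 6.09%. From Day 1 to Day 2 no member passed without the block, against backgrounds of 2.16% higher and 1.73% lower, while 3 had an unadjusted p under 0.05. Over all genes the median log2 change of this step was -0.19, and the split of 264 higher and 211 lower became 371 and 103 with median ratio scaling. With the block, 4 were lower (*Id1*, *Id2*, *Id3* and *Sox6*) against 3.57% and 0 higher against 3.01%. From Day 2 to Day 3 no member passed without the block, against 0.246% higher and 0.0491% lower, while 2 had an unadjusted p under 0.05. With the block 1 was lower (*Sox11*) against 0.36% and 0 were higher against 0.975%. The plot of log2 changes shows both fits for the first and the whole interval.

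**Figure D3:**
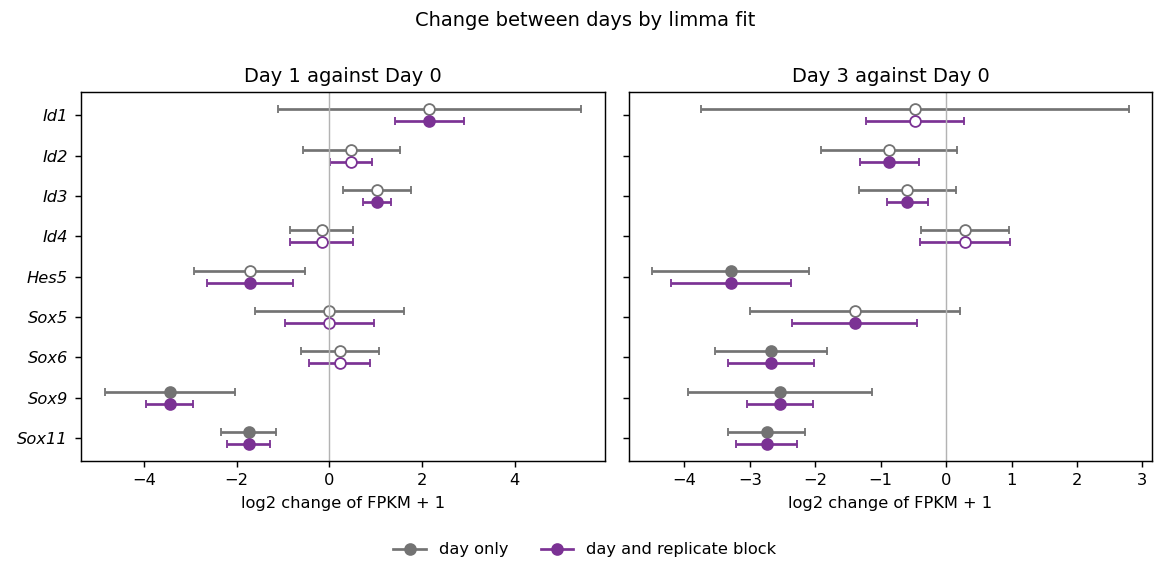
Log2 change of FPKM + 1 (horizontal axes) of 9 members for Day 1 against Day 0 and Day 3 against Day 0. Points are limma estimates and lines 95% intervals, in grey without and in purple with the replicate block, and filled points passed an adjusted p of 0.05. The estimates are the same in both fits, and the interval of *Id1* narrows most with the block.

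The replicates were compared over the 4 days, with the day in the model. The days served as the repeats of each replicate number, and no source says that equal numbers share a cell isolation. These p-values therefore do not measure the spread between independent isolations. *Id1* and *Sox9* were higher in replicate 2, against a background of 0.68% of genes, and *Id2* and *Id3* were lower, against 0.369%. *Id1* differed by a log2 of 2.82 (SE 0.23, adjusted p = 0.00161) and was called in all 15 other fits. That *Id1* differs between the replicates was known from these values before the fit. Its p-value and calls here describe the size of that difference and are no independent test of it. *Sox9* differed by 1.17 (SE 0.16, adjusted p = 0.0126) and was called in 10 of 15. *Id2* differed by -0.84 (SE 0.14, adjusted p = 0.0344) and *Id3* by -0.6 (SE 0.095, adjusted p = 0.0255). These were called in 6 and 5 of 15 other fits, and both were lower in replicate 2 on 4 of 4 days. *Sox5* was higher in replicate 2 on 4 of 4 days and did not pass (1.16, adjusted p = 0.157). The Id genes thus differed between the replicates in opposite directions, with *Id4* at -0.04 (95% interval -0.53 to 0.45). No gene was called for a different slope over the days between the replicates (0 of 12208 by limma, with 853 at an unadjusted p under 0.05), a fit with few degrees of freedom left. Among the members, 2 had an unadjusted p under 0.05, namely *Sox6* (-0.41 log2 per day, SE 0.12, adjusted p = 0.612) and *Id4* (0.35 log2 per day, SE 0.15, adjusted p = 0.702).

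Astrocyte markers moved with the same split. Of 11 tested, 6 were called higher in replicate 2 (*Aqp4*, *Gfap*, *Gja1*, *Aldh1l1*, *Slc4a4* and *Slc1a3*) and 0 lower, against 0.68% and 0.369% of all genes. *Gfap*, the intermediate filament of astrocytes, was at 14.7, 30.39, 27.26 and 45.47 FPKM in replicate 1 from Day 0 to Day 3 and at 153.9, 317.3, 408.7 and 602.8 FPKM in replicate 2. Its replicate 2 values were higher on each later day, as were those of *Aqp4*, *Gja1* and *Aldh1l1*. *Slc1a3* and *Slc4a4* were lowest on Day 1 in replicate 2. By day they were at 56.19, 28.44, 33.39 and 56.33 FPKM (*Slc1a3*) and at 9.037, 7.19, 10.92 and 25.46 FPKM (*Slc4a4*). In replicate 2 *Id1* was highest on Day 1, and *Sox9* was highest on Day 0 and lowest on Day 1. Of 7 OPC markers tested, 1 was called, the receptor gene *Pdgfra*, which was lower in replicate 2 (log2 difference -1.81, adjusted p = 0.0461). The other 6 were not called, and the median of that list was -0.37. Of 7 OL markers tested, 1 was called, *Mag*, which was higher in replicate 2 (0.69, adjusted p = 0.0425), and the median of that list was 0.28. The part of astrocytes or of maturation in the replicate differences of the members was not tested.

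**Figure D4:**
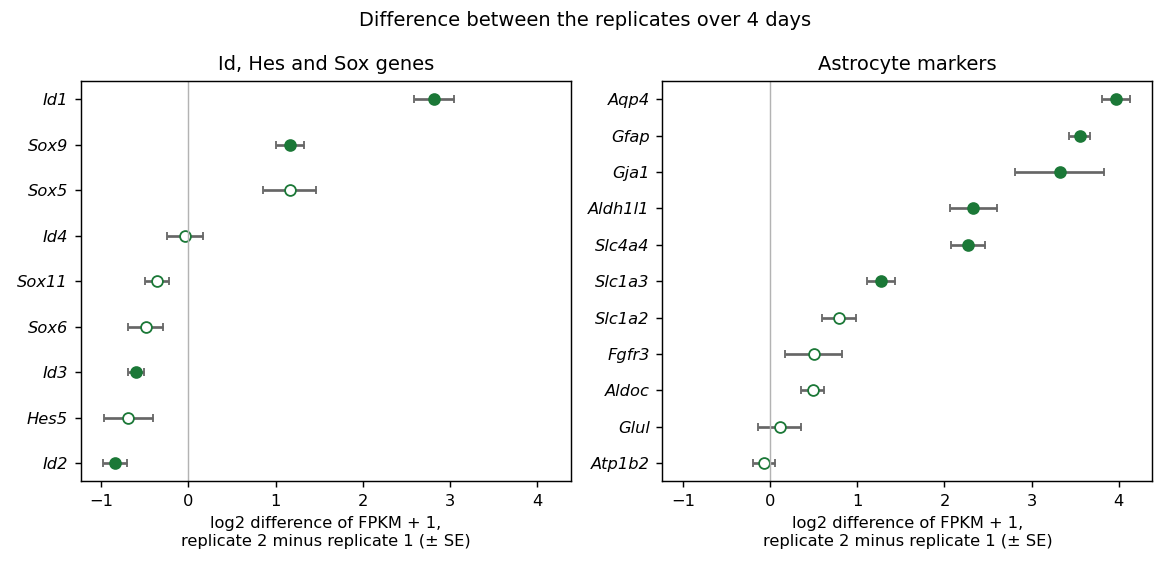
Log2 difference of FPKM + 1 between replicate 2 and replicate 1 over 4 days (horizontal axes, points with SE) for 9 members and 11 astrocyte markers. Filled points passed an adjusted p of 0.05. *Id1* stands at 2.82, near the astrocyte markers *Aldh1l1* and *Gja1*, and *Id2* and *Id3* lie below 0.

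Across the 8 libraries, on the log2(FPKM + 1) scale, *Id2* and *Id3* had a Pearson r of 0.899, *Hes5* and *Sox11* one of 0.884, and *Id1* and *Sox5* one of 0.764. *Id1* had an r of -0.123 with *Id2* and 0.121 with *Id3*. These 8 points share days and replicate numbers, and the values are descriptions. Below, most like means the highest r, which does not reflect the size of a change. Among the genes so named, *Lig3* ran only from 11.36 to 14.33 FPKM and *Mdh2* only from 156.6 to 199 FPKM. The genes most like *Id1* were *Lig3*, *Dcx* and *Mfsd2a* (r = 0.942, 0.94 and 0.94), of which *Dcx*, a gene of migrating neuroblasts, was at 0.5815, 2.273, 1.188 and 1.022 FPKM in replicate 1 and 10.98, 14.08, 5.186 and 2.444 FPKM in replicate 2. Those most like *Id2* were *Loxl3*, *Gpm6b* and *Plk1s1* (0.977 to 0.975), and those most like *Id3* were *March6*, *Apc2* and *Plxna4* (0.989 to 0.983). *Id4* had *Dusp28*, *2310009A05Rik* and *Acy1* (0.941 to 0.931). *Hes5* was most like *Sumo3*, *Col4a2* and *Arhgap10* (0.994 to 0.988). *Sox9* was most like *Ptgfrn*, *Psrc1* and *2810408I11Rik* (0.977 to 0.965), and *Psrc1*, a gene of the mitotic spindle, was at 23.22 and 55.74 FPKM on Day 0 and 1.872 and 3.147 FPKM on Day 1. *Sox11* was most like *Fbxo34*, *Nap1l1* and *Itga9* (0.992 to 0.985), *Sox6* like *R3hdm2*, *Igsf21* and *Maged2* (0.993 to 0.991), and *Sox5* like *Sorbs2*, *Lcmt2* and *Mdh2* (0.971 to 0.967).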

How the data were processed

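Total RNA of the 8 OPC libraries was made into stranded, polyA-selected libraries and sequenced on a MiSeq system (paired ends, 75 nt). OmicSoft ArrayStudio was the software of the authors, who deposited 1 table of FPKM, a column per library, with replicates not pooled. The labels give the build as mm10. The aligner, the gene model and the use of strand in counting are not given in the sources used here, and the labels and the methods describe the medium and the extraction kit differently. FPKM corrects for depth and length only. Fragments were recovered where a gene's FPKM were whole multiples of a step (tolerance 0.03 fragments), which held for 68.1% of 2420 low genes.

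Days and replicate numbers came from the titles. Days were compared with limma 3.58.1 in R 4.3.3 (lmFit, eBayes with a trend) on log2(FPKM + 1), the day as a factor, and Benjamini-Hochberg adjustment over 12208 genes. Other steps used Python 3.11.15. For the replicate block, the replicate differences of each pair of days correlated at r = 0.164 to 0.285 over genes. The labels number the libraries 1 and 2 on each day, but no source says that equal numbers share a cell isolation. The p-values rest on 2 cultures a day. In simulated data the fit of Day 3 against Day 0 recovered 63.2% of genes changed by a log2 of 2 and 21.3% of those changed by 1. There 12008 of 12208 genes were left unchanged between these days, while 4667 were called in the data. The adjustment depends on the share of changed genes, so these recovery rates do not measure the power in the data. The slope fit recovered 0 of 200 genes with a simulated slope difference of 1 per day. Coordinates are from GENCODE M21 (GRCm38), and promoter windows from RefSeq (GRCm38.p6).

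All members are named in every library, with the E proteins, *Sox10*, *Sox4*, *Sox8*, *Notch1*, *Jag1*, *Bmp4*, *Bmpr1b*, the largest called rise and fall of each list by Day 3, and the 3 genes with the highest r for each member except *Hes1*. *Nog*, *Bmp7*, *Dll1*, *Nrarp*, *Hey1*, *Hey2*, *Gfap*, *Aqp4*, *Gja1*, *Aldh1l1*, *Slc1a3*, *Slc4a4*, *Snap25*, *Pdgfra* and the calls added by the block in the BMP and Notch lists were added after their values were seen. A result on a further gene is not reported here. The members and lists were chosen with earlier results of these data known.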

Additional observations from a re-analysis of the deposited data

How the results depend on the processing

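Each result was recomputed with a pseudocount of 0.1, no filter (15267 genes), a filter of 10 FPKM in 1 library (8202 genes), the replicate block, rescaling to equal sums, quantile normalization, median ratio scaling, eBayes without a trend, only the days compared, and each library left out. The block together with a scaling or a left-out library was added after the data were seen. Of 862 recomputed values of the member changes that the report gives, 710 kept direction and side of the threshold, 107 newly passed, 27 no longer passed and 18 changed sign, and the causes were not tested. The block changed the number of members called from 4 to 7 (Day 3 against Day 0), 2 to 5 (Day 1 against Day 0), 0 to 4 (Day 2 against Day 1) and 0 to 1 (Day 3 against Day 2). It moved the genes called in the last 2 steps from 475 to 803 and from 36 to 163, and it changed no other call of a member. With the block and equal sums these member numbers were 7, 5 and 4 for the first 3 comparisons, with median ratio scaling 5 on Day 1 and 3 in the next step, and with quantile normalization 5 and 4. Genes called were 779 from Day 1 to Day 2 with the block and equal sums, and 174, 143 and 144 from Day 2 to Day 3 with the 3 scalings. From Day 1 to Day 2 the filter of 10 FPKM called 1 member. Without a filter 247 genes were called, without a trend 121, and with only the days compared 0. From Day 2 to Day 3 the pseudocount of 0.1 left 8 genes, and no filter, no trend and only the days compared left 0. Between the replicates, no filter and no trend each left 2 members, and the genes called were 72 (pseudocount 0.1), 59 (no filter) and 77 (no trend). The Day 1 change of *Sox5* was -0.11 with the pseudocount of 0.1, and the replicate difference of *Id4* was 0.01 with median ratio scaling.

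With a library left out, with and without the block, the members called ranged from 3 to 7 (Day 3 against Day 0), 1 to 5 (Day 1), 0 to 4 (Day 2 against Day 1), 0 to 2 (Day 3 against Day 2) and 1 to 2 (replicates). The genes called ranged from 2701 to 5043, 565 to 2064, 11 to 1068, 0 to 447 and 40 to 100, and for the day slope from 0 to 18. The fewest genes came without replicate 2 of Day 0 (Day 3 against Day 0), replicate 1 of Day 0 (Day 1) and replicate 2 of Day 2 (Day 2 against Day 1). From Day 2 to Day 3 and without the block, the fewest came when either replicate of Day 0 or Day 2, or replicate 2 of Day 3, was left out. Of the member changes given in the report, those that took either sign were that of *Id1* on Day 3 (-2.2 to 1.24), those on Day 1 of *Id2* (-0.07 to 1.03), *Id4* (-0.53 to 0.21), *Sox5* (-1.05 to 1.05) and *Sox6* (-0.25 to 0.71), and the replicate difference of *Id4* (-0.22 to 0.15). Changes not given there that took either sign, and passed in no alternative, were those of *Hes1* on Day 1, from Day 1 to Day 2 and between the replicates, of *Id4*, *Sox9* and *Sox11* from Day 1 to Day 2, of *Id1*, *Id2*, *Id3*, *Hes5*, *Sox5* and *Sox9* from Day 2 to Day 3, and the day slopes of *Id2*, *Id3* and *Hes5*. Depth limits *Hes1* in all libraries, *Id1* in replicate 1 and *Hes5* after Day 1.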
